A study of Rattus norvegicus with 12 samples.

Results

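The fibroblast growth factor (FGF) ligands and receptors examined here are the 7 ligand genes Fgf1, Fgf2, Fgf3, Fgf5, Fgf7, Fgf10, and Fgf18 and the 3 receptor genes Fgfr1, Fgfr2, and Fgfr3. They were chosen by symbol, and all 10 were found among the 25620 genes of the count table and among the 25524 genes of the FPKM table. The RNA came from dorsal skin of male Sprague-Dawley rats, 8 to 12 weeks old, that were made diabetic with streptozotocin, all carrying a full-thickness punch wound. Control wounds received saline. The d-SMG wounds received the dried mucus gel of the snail A. fulica, the s-GAG wounds its sulfated glycosaminoglycan (GAG in the labels), and the Alg wounds a commercial alginate dressing. Tissue was taken on day 3, 7, and 14, with 1 library for each group and day and 12 libraries in all. Whether a library holds 1 rat or several is not stated in the sources used here.

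The FGFs are secreted proteins that bind heparan sulfate and activate receptor tyrosine kinases on neighboring cells. In skin, Fgf7 and Fgf10 are made by dermal cells and act on the epithelial splice form of Fgfr2 in keratinocytes, which supports re-epithelialization and hair growth. Fgf5 is known as the signal that ends the growth phase of the hair follicle, Fgf18 is made in the resting follicle, and Fgf1 and Fgf2 act broadly on fibroblasts, endothelium, and epithelium. Fgfr1 prevails in mesenchymal cells and Fgfr3 in epithelium. Counts per gene do not separate the epithelial and mesenchymal splice forms of the receptors.

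The libraries held between 13748887 and 38302461 reads on genes, with a median of 17022524.5. The d-SMG library of day 3 stood apart, with a summed level of 73.5 CPM (read counts scaled to the library size with TMM factors) for 13 keratinocyte markers, against 4230 to 33300 in the other 11 libraries. None of the 13 markers was at 0 reads in it, and 12 skeletal muscle markers summed to 236000 CPM there, against 5560 to 148000 elsewhere. Scaling by library size alone, in place of TMM, would shift a treated library against its control by -0.46 to 0.29 on the log2 scale, and places where this or the deposited FPKM turned a direction are named. In whole tissue, fewer cells of a type and less RNA per cell cannot be told apart.

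Compared per length, as FPKM (reads scaled by gene length and library size), the receptors and Fgf7 were the most abundant members. Fgfr1 reached 14.8 ± 5.74 FPKM (SD, n = 12 libraries of all groups and days), followed by Fgfr2 with 5.51 ± 2.59, Fgf7 with 4 ± 1.51, and Fgfr3 with 3.91 ± 2.57. The spreads of Fgfr2, Fgf7, and Fgfr3 overlapped. Fgf1 had a lower mean of 1.15 ± 0.421 FPKM, with a spread that overlapped that of Fgfr3. The means of Fgf10 (0.614), Fgf2 (0.408), Fgf5 (0.407), Fgf18 (0.332), and Fgf3 (0.302) lay lower still, with overlapping spreads. Fgf3 had no read in 4 libraries and fewer than 10 in 10 of the 12, so that its values were set by few reads. Fewer than 10 reads were also counted in 7 libraries for Fgf2 and Fgf10, 6 for Fgf5, and 2 for Fgf18.

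Of the summed FPKM of the 3 receptors, Fgfr1 held a median of 58.4% over the 12 libraries. Its share was lowest in the s-GAG library of day 14 (40.6%) and highest in the d-SMG library of day 3 (93.3%). The share of Fgfr2 ran from 3.05% to 33.8% in the same libraries, with d-SMG day 3 lowest. Fgfr3 held 3.63% in d-SMG day 3, 3.87% in control day 7, and 6.63% in control day 3, and its highest share was 32.8% in s-GAG day 7. Among the 7 ligands, Fgf7 held between 36.5% and 70.9%, with a median of 59.4%. Fgf3 reached 24% of the ligand FPKM in s-GAG day 14, Fgf5 14.7% in s-GAG day 7, and Fgf2 13.6% in d-SMG day 3.

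**Figure D1:**
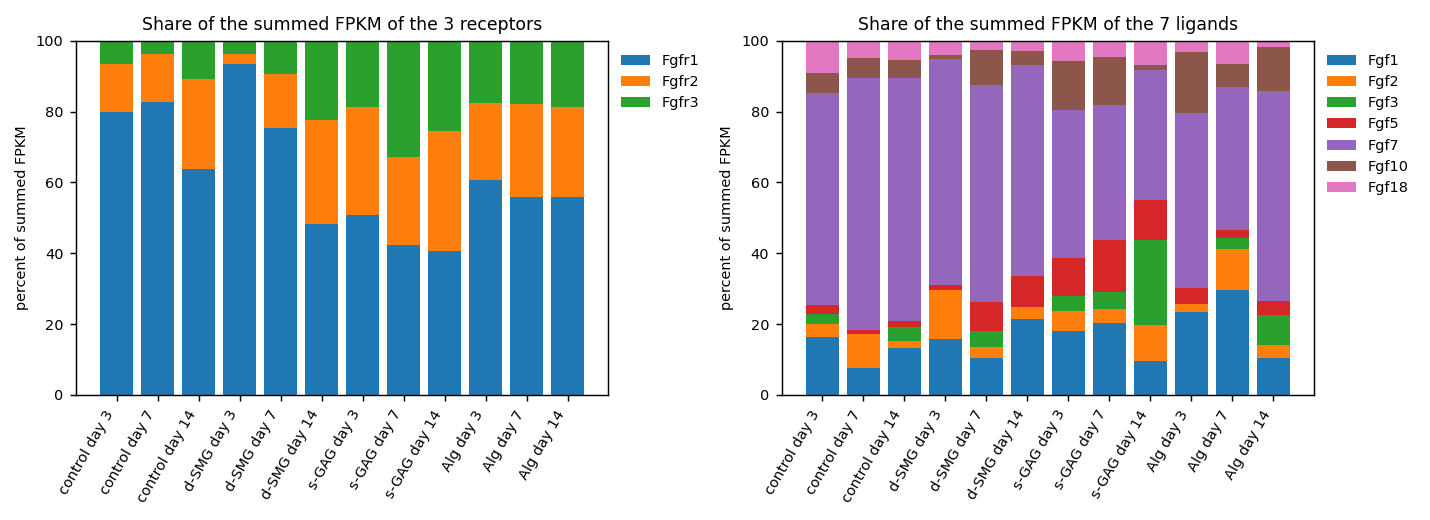
Stacked bars give the percent of the summed FPKM held by each of the 3 receptors (left) and each of the 7 ligands (right) in the 12 libraries. Fgfr1 takes 93.3% of the receptor sum in d-SMG day 3 and 40.6% in s-GAG day 14, and Fgf7 takes 36.5% to 70.9% of the ligand sum.

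Fgf7, the keratinocyte growth factor, was read at 18.8, 19.4, and 26.4 CPM in the control libraries of day 3, 7, and 14. The d-SMG libraries gave 28.1, 17.3, and 11.8 CPM on the same days. The s-GAG libraries gave 12.2, 9.29, and 8.7 CPM, and the Alg libraries 15.9, 9.55, and 23.1 CPM. All 3 s-GAG values lay below all 3 control values, whereas the d-SMG and Alg values overlapped the control range. How many of all genes separate fully from control in this way was not counted. Here and for the members below, such a separation is therefore not read as particular to the gene. Fgf10, the second ligand of the epithelial Fgfr2 form, was counted with 4 to 7 reads in control, 1 to 10 in d-SMG, 1 to 22 in s-GAG, and 4 to 19 in Alg. The 4 groups overlapped, and the highest Fgf10 levels were 0.938 CPM in Alg day 3 and 0.819 CPM in Alg day 14.

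Fgf1, a ligand of all FGF receptors, was at 7.35, 2.98, and 7.22 CPM in control on day 3, 7, and 14. It was at 9.91, 4.16, and 5.95 CPM with d-SMG, 7.43, 7.05, and 3.18 CPM with s-GAG, and 10.8, 10, and 5.8 CPM with Alg. Control day 7 was the lowest of the 12 libraries with TMM and the second lowest, above s-GAG day 14, in FPKM or scaled by library size. Fgf2, which is known for effects on fibroblasts and vessels, had 3 to 19 reads. Its highest level was 1.58 CPM in d-SMG day 3 (19 reads), and the other 11 libraries lay between 0.188 and 0.729 CPM.

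Fgf5, the hair follicle regression signal, was at 0.298, 0.135, and 0.242 CPM in control on day 3, 7, and 14, from 7, 2, and 5 reads. The s-GAG libraries gave 1.13, 1.3, and 0.974 CPM from 20, 51, and 15 reads. They lay above all control libraries on every scaling, and above every other library with TMM only, since d-SMG day 7 (0.68 FPKM) exceeded s-GAG day 14 (0.52 FPKM) in the deposited values. The d-SMG libraries gave 0.25, 0.861, and 0.626 CPM and the Alg libraries 0.543, 0.199, and 0.567 CPM, both overlapping control. Fgf18, an FGF of the resting follicle, was at 2.34, 1.08, and 1.75 CPM in control and at 1.42, 0.574, and 0.501 CPM with d-SMG. With s-GAG it was at 1.36, 0.917, and 1.36 CPM, and with Alg at 0.889, 1.26, and 0.567 CPM. On each of the 3 days d-SMG and s-GAG were below control, but the ranges over days overlapped, for d-SMG with TMM only. Fgf3, known from inner ear and tooth development, reached its highest counts on day 14 in s-GAG (17 reads) and Alg (10 reads), against 6 reads in control and 0 in d-SMG on that day. On day 7 it had 5, 9, and 2 reads with d-SMG, s-GAG, and Alg, against 0 in control. On day 3 it had 4 reads in control and in s-GAG, and 0 in d-SMG and Alg. A count of 0 in the d-SMG library of day 14 allows up to 3 reads by counting error alone.

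**Figure D2:**
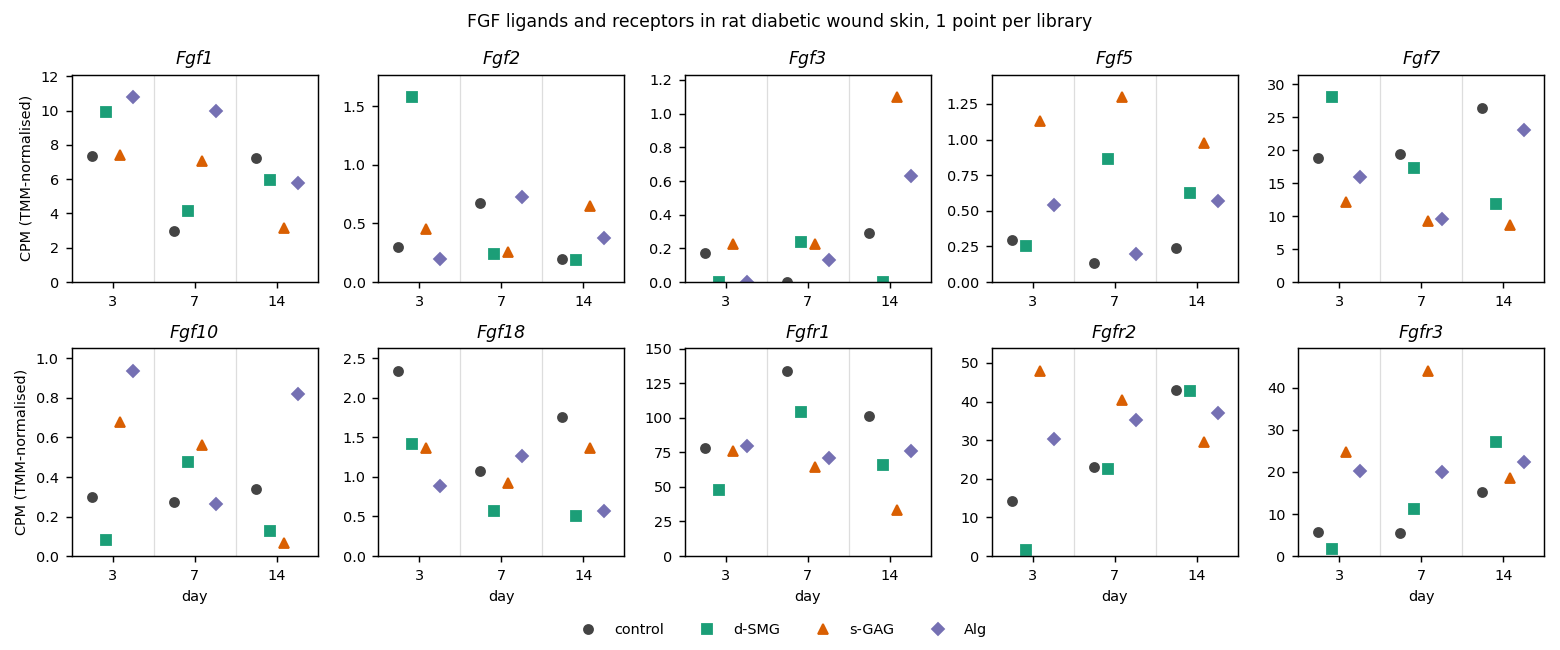
Each point is 1 library, with TMM-normalised CPM on a linear axis from 0 for the 10 genes and the day on the x axis, colored by group. The s-GAG libraries lie highest for Fgf5 on all 3 days (0.974 to 1.3 CPM), and d-SMG day 3 lies lowest for Fgfr2 and Fgfr3 (both 1.66 CPM).

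Fgfr1, the prevailing receptor of mesenchymal cells, was at 78.1, 134, and 101 CPM in control on day 3, 7, and 14. It was at 48, 104, and 66.1 CPM with d-SMG, 75.8, 64.4, and 33.4 CPM with s-GAG, and 79.4, 71.1, and 76.1 CPM with Alg. The s-GAG values of day 7 and 14 lay below the lowest control value, whereas d-SMG and Alg overlapped control. The s-GAG value of day 3 was near that of control, below it with TMM and above it in FPKM (15.6 against 14.4). Fgfr2, the receptor through which Fgf7 and Fgf10 reach keratinocytes, was at 14.2, 23, and 42.9 CPM in control. It was at 1.66, 22.5, and 42.7 CPM with d-SMG, 48, 40.3, and 29.6 CPM with s-GAG, and 30.3, 35.2, and 37 CPM with Alg. The groups overlapped, and the d-SMG library of day 3 held 20 reads of Fgfr2 against 333 in control. Fgfr3, an epithelial receptor also known to restrain bone growth, was at 5.74, 5.55, and 15.3 CPM in control. It was at 1.66, 11.3, and 27.2 CPM with d-SMG, 24.7, 44.1, and 18.6 CPM with s-GAG, and 20.2, 20.1, and 22.4 CPM with Alg. All Alg values of Fgfr3 were above all control values. The s-GAG values were as well with TMM, but in FPKM the s-GAG library of day 14 (3.1) was just below control of that day (3.24).

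The levels of Fgfr2 and Fgfr3 moved together over the 12 libraries (Pearson r = 0.897 of log2 CPM, a description over libraries that share groups and days), the highest r between any members. Their promoters are therefore shown, from 250 bases before to 50 after the start in RefSeq (build GRCr8, minus strand for both), at chr1:194280865-194281164 for Fgfr2 and chr14:81227160-81227459 for Fgfr3. Capitals mark each GC box, searched as GGGCGG on both strands.
Fgfr2: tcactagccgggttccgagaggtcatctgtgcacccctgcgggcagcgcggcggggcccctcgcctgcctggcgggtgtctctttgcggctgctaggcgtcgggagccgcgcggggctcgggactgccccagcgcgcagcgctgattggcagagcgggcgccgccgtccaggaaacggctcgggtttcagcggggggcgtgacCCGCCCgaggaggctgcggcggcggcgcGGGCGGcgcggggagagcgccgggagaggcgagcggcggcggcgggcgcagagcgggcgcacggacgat
Fgfr3: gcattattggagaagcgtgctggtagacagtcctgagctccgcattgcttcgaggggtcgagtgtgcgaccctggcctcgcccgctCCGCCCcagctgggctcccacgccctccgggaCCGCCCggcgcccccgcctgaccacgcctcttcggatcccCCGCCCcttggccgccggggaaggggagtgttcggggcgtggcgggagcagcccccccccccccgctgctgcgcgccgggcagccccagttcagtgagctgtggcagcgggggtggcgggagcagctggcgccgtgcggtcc
The Fgfr2 window held 2 GC boxes and 77.7% G or C, and the Fgfr3 window 3 GC boxes and 74.7%. A GC box was found in 33.1% of 33469 rat promoter windows of the same length, whose median G and C content was 51.7%. Both windows held 1 CCAAT motif, which 37.5% of all windows held, and neither held TATAAA, which 14.2% held. These matches describe letters only. RefSeq windows were matched by symbol for 9 of the 10 members, all except Fgfr1.

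Each treated library was first set against the control library of its own day, which asks how the FGF genes of a dressed wound differ from those of a saline wound at that time. A gene was called apart where the levels differed at least 2-fold, with an exact 95% counting interval that left out no change and at least 10 reads in the pair. The intervals cover counting error only, a single pair has no replicate check, and the 3 treatments share the control libraries. With d-SMG on day 3, Fgfr2 was 8.5-fold lower than control (log2 fold change -3.09, interval -3.82 to -2.44) and Fgfr3 was 3.45-fold lower (-1.79, interval -2.54 to -1.10). Fgf2 was 5.32-fold higher (2.41, interval 1.10 to 3.90, from 19 reads against 7). These were 1 member higher and 2 lower of 8 tested, beside 9.09% higher and 11.8% lower of all genes tested. In that pair 12 of 13 keratinocyte markers were called lower with a median log2 fold change of -6.22, 11 of 12 muscle markers were called higher with a median of 1.90, and their part in the receptor difference was not tested.

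On day 7, d-SMG and control differed for 2 of 9 members, both higher, beside 5.78% higher and 4.86% lower of all genes. Fgfr3 was 2.04-fold higher (log2 fold change 1.03, interval 0.66 to 1.41). Fgf5 was 6.35-fold higher, from 18 reads against 2, with an interval from 0.61 to 5.82 on the log2 scale. Fgfr2 (-0.04, interval -0.24 to 0.17) and Fgf7 (-0.17, interval -0.39 to 0.06) did not differ from control beyond counting error with TMM, and scaled by library size they were at 0.26 and 0.13. In this pair 8 of 13 keratinocyte and 11 of 12 hair follicle markers were called higher and all 12 muscle markers lower, and their part was not tested. On day 14 the d-SMG library was called lower for 2 of 7 members, beside 11.4% higher and 14.4% lower of all genes. Fgf7 was 2.25-fold lower (-1.17, interval -1.41 to -0.93) and Fgf18 was 3.49-fold lower (-1.80, from 8 reads against 36). Fgfr2 did not differ from control beyond counting error with TMM (interval -0.15 to 0.14) and was at 0.18 scaled by library size. In the same pair 11 of 12 hair follicle markers were called higher and 12 of 12 muscle markers lower, with 5 keratinocyte markers higher and 4 lower of 13, and their part in the member values was not tested.

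With s-GAG on day 3, 3 of 9 members were called higher and none lower, beside 12.7% higher and 10.2% lower of all genes. Fgfr3 was 4.31-fold higher (log2 fold change 2.11), Fgfr2 3.39-fold higher (1.76), and Fgf5 3.81-fold higher (1.93, from 20 reads against 7). Fgfr1 did not differ beyond counting error (-0.04, interval -0.15 to 0.06) with TMM and was at 0.13 scaled by library size. On day 7, 3 of 9 members were called higher and 2 lower, beside 10.8% and 11.5% of all genes. Fgfr3 was 7.94-fold higher (2.99, interval 2.67 to 3.33), the widest receptor difference above control in any of the 9 pairs. Fgf1 was 2.37-fold higher, Fgf5 was 9.58-fold higher from 51 reads against 2 (3.26, interval 1.33 to 6.35), and Fgf7 and Fgfr1 were each 2.08-fold lower.

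On day 14 the s-GAG library differed most from control over all genes, with 25.4% called higher and 29.8% called lower. Of 9 members tested, Fgf3 (1.92, from 17 reads against 6) and Fgf5 (2.01, from 15 reads against 5) were called higher. Fgf7 was 3.04-fold lower (-1.60), Fgfr1 3.03-fold lower (-1.60), and Fgf1 2.27-fold lower (-1.18). The 2 higher and 3 lower calls of 9 were near these background shares. In the s-GAG pairs 12 of 12 hair follicle markers were called higher on each day. Of 13 keratinocyte markers, the day 3 pair had 8 called higher and 0 lower, the day 7 pair 12 and 0, and the day 14 pair 6 and 6 (median log2 fold change -0.19), and their part in the Fgfr2, Fgfr3, and Fgf5 values was not tested. Of 9 fibroblast and matrix markers, which stand beside the Fgfr1 and Fgf7 values, the day 3 pair had 4 called higher and 0 lower, the day 7 pair 0 and 8, and the day 14 pair 0 and 7, and their part was not tested either.

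With Alg on day 3, 3 of 9 members were called higher and 1 lower, beside 9.75% and 7.53% of all genes. Fgfr3 was 3.53-fold higher (1.82), Fgfr2 2.14-fold higher (1.10), and Fgf10 3.15-fold higher (1.66, from 19 reads against 7), while Fgf18 was 2.63-fold lower (-1.40). On day 7, 2 of 7 members were called higher and 1 lower, beside 10.6% and 11.1%. Fgfr3 was 3.62-fold higher (1.85), Fgf1 3.36-fold higher (1.75), and Fgf7 2.03-fold lower (-1.02). On day 14, 1 of 10 members was called, Fgf18, which was 3.08-fold lower from 9 reads against 36 (-1.62), beside 8.53% higher and 9.88% lower of all genes. Hair follicle markers were called higher in the Alg pairs for 12 of 12, 8 of 11, and 12 of 12 on day 3, 7, and 14, and keratinocyte markers for 5, 12, and 3 of 13, with 3, 0, and 1 lower. On day 7, 7 of 9 fibroblast and matrix markers were called lower (median -1.90), as were 5 of 5 macrophage markers, while 9 of 12 muscle markers were called higher. The part of these markers in the Alg values was not tested. Over the 3 days, d-SMG had 7 of 24 tested member and day values called apart, s-GAG 13 of 27, and Alg 8 of 26. They stand beside the shares of all genes given for each pair. Those shares were largest for s-GAG on day 14 (25.4% higher and 29.8% lower), so the higher s-GAG count is not read as particular to the members.

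The members' median log2 fold change, beside that of all genes in the same pair, was -0.48 beside 0.00 for d-SMG day 3, -0.04 beside 0.02 for day 7, and -0.28 beside -0.01 for day 14. For s-GAG it was 0.61 beside -0.04, 0.81 beside 0.05, and -0.36 beside -0.10 on day 3, 7, and 14. For Alg it was 0.55 beside -0.01, 0.22 beside -0.01, and 0.18 beside 0.01. These medians cover only the members with at least 10 reads in the pair.

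**Figure D3:**
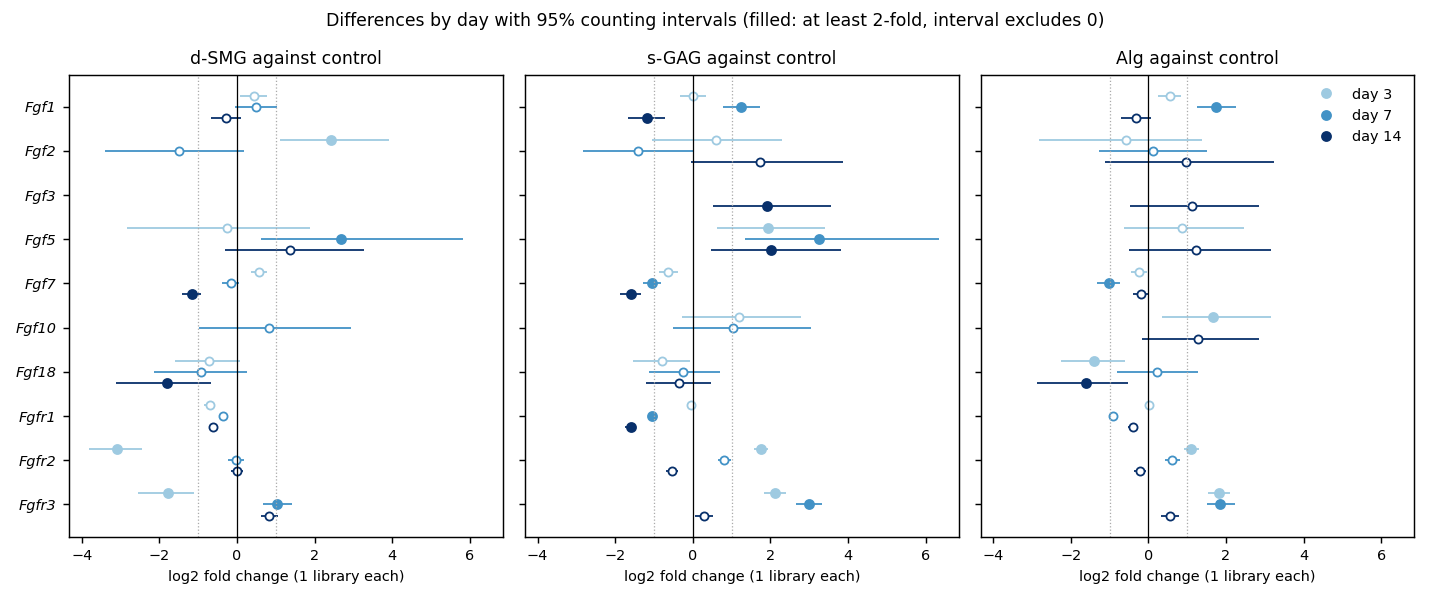
Log2 fold changes against the day-matched control library, with 95% counting intervals as lines, for the member and day values with at least 10 reads in the pair. Filled points are at least 2-fold apart with an interval that leaves out 0, such as Fgfr2 with d-SMG on day 3 (-3.09) and Fgfr3 with s-GAG on day 7 (2.99).

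The treatments were then compared with control over the 3 days together, with the days as replicates (n = 3 libraries in each group) in the quasi-likelihood test of edgeR, in which an effect that differs between days counts as spread. No gene of 16110 passed the FDR of 0.05 for d-SMG, s-GAG, or Alg (0% called), and therefore none of the 10 members did. Unadjusted p-values under 0.05 were found for 218, 1492, and 502 genes, respectively, and for 0, 3, and 0 members. The 3 members were Fgf5, Fgf7, and Fgfr3 with s-GAG. Fgf5 averaged 1.14 ± 0.162 CPM with s-GAG against 0.225 ± 0.0824 in control (log2 fold change 2.32, SE 0.65, edgeR adjusted p = 0.417), higher on 3 of 3 days. Fgfr3 averaged 29.2 ± 13.3 CPM against 8.85 ± 5.56 (1.97, SE 0.73, edgeR adjusted p = 0.502). It was well above control on day 3 and 7, and on day 14 the log2 fold change was 0.29 with TMM, -0.10 by library size, and -0.06 in FPKM. Fgf7 averaged 10.1 ± 1.87 CPM against 21.5 ± 4.24 (-1.08, SE 0.39, edgeR adjusted p = 0.499), lower on 3 of 3 days. Leaving out 1 library at a time, the log2 fold changes ran from 2.05 to 2.64 for Fgf5, 1.56 to 2.51 for Fgfr3, and -1.32 to -0.91 for Fgf7.

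With Alg, Fgfr3 averaged 20.9 ± 1.32 CPM, higher than control on 3 of 3 days (1.43, SE 0.71, edgeR adjusted p = 1). Fgf18 was lower than control on 3 of 3 days with d-SMG (-1.15, SE 0.53) and s-GAG (-0.44, SE 0.51), without passing the test. Fgfr1 was lower on 3 of 3 days with d-SMG (-0.57, SE 0.37) and on day 7 and 14 with s-GAG (-0.82, SE 0.37), with the day 3 value near 0 (edgeR adjusted p for all 4 values between 0.542 and 1). The d-SMG values of the epithelial receptors turned with single libraries. Fgfr2 was at -0.47 (SE 0.76), at 0.23 without the d-SMG library of day 3, and at -1.37 without that of day 14. Fgfr3 was at 0.36 (SE 0.71), at 1.01 without the library of day 3, and at -0.64 without that of day 14. Fgf2 with d-SMG moved from 0.61 to -0.96 without the d-SMG library of day 3. Members had a median log2 fold change of -0.34, 0.38, and 0.38 for d-SMG, s-GAG, and Alg, beside -0.03, 0.00, and -0.03 over all genes tested.

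Between days, with the 4 groups as replicates, 0% of the 16110 genes passed for day 7 against 3, day 14 against 3, and day 14 against 7. At an unadjusted p under 0.05 there were 292, 798, and 502 genes, none of them a member. Fgfr2 averaged 23.5 ± 20.1 CPM on day 3, 30.3 ± 8.92 on day 7, and 38.1 ± 6.26 on day 14 (n = 4 libraries a day). Day 14 was above day 3 by 1.18 on the log2 scale (SE 0.71, edgeR adjusted p = 0.882), in 3 of 4 groups. Without the d-SMG library of day 3 this difference was 0.52. Fgfr3 averaged 13.1 ± 11.1, 20.3 ± 17, and 20.9 ± 5.11 CPM, and day 14 exceeded day 3 by 1.25 (SE 0.64, edgeR adjusted p = 0.882), or by 0.67 without that library. Fgf1 was lower on day 14 than on day 3 in 3 of 4 groups on every scaling and in control with TMM only, at 5.54 ± 1.70 against 8.86 ± 1.74 CPM (-0.62, SE 0.40, edgeR adjusted p = 0.882). Fgf3 was at 0.506 ± 0.474 CPM on day 14 against 0.0992 ± 0.117 on day 3, from at most 17 reads a library (edgeR adjusted p = 0.882).

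Fgfr2 and Fgfr3 were set beside the keratinocyte marker sum, since these receptors are known from epithelium. The sum was 5640, 4230, and 10300 CPM in control, 73.5, 8250, and 17800 with d-SMG, 11000, 15200, and 33300 with s-GAG, and 9070, 14500, and 16800 with Alg, on day 3, 7, and 14. The 3 libraries with the lowest sums (d-SMG day 3, control day 7, and control day 3) were also the 3 with the lowest Fgfr3 levels, at 1.66, 5.55, and 5.74 CPM. For Fgfr2 the lowest were d-SMG day 3 and control day 3, followed by d-SMG day 7 with TMM and control day 7 in FPKM. The order did not hold at the upper end, where s-GAG day 14 had the highest marker sum and only 29.6 CPM of Fgfr2 and 18.6 CPM of Fgfr3. That sum was mostly Krt14 (23500 of 33300 CPM). Of the 13 markers, 6 were called higher and 6 lower than control in this library, so its sum does not stand for all of them. Fgfr1 did not follow this order, and its highest level, 134 CPM, was in control day 7, which also had the highest sum of 9 fibroblast and matrix markers, at 45400 CPM. At the lower end Fgfr1 followed the fibroblast sum only in part. The lowest sum, 6660 CPM, was in d-SMG day 3 with 48 CPM of Fgfr1, and s-GAG day 7 had 8650 CPM with 64.4 CPM. Control day 3 had a sum of 8370 CPM with 78.1 CPM of Fgfr1, and s-GAG day 14, lowest for Fgfr1 (33.4 CPM), had 9610 CPM. The part of cell composition in these values was not tested.

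**Figure D4:**
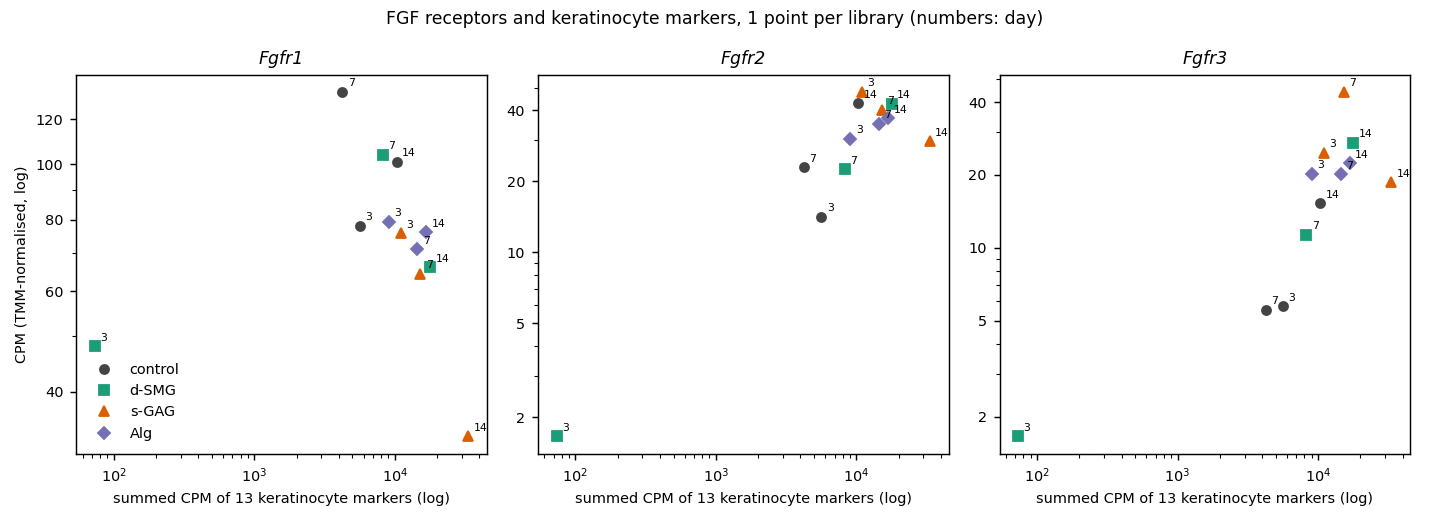
Each point is 1 library, labeled by its day, with the summed CPM of 13 keratinocyte markers on the x axis and the CPM of each receptor on the y axis, both on log scales. The d-SMG library of day 3 sits apart at 73.5 CPM of markers and 1.66 CPM of Fgfr2 and Fgfr3.

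Of 64 further genes of FGF signaling, 62 were in the count table, and 51 entered the test over the 3 days. None was called in any of the 6 comparisons with edgeR (0% over all genes), and 0, 7, and 2 had an unadjusted p under 0.05 for d-SMG, s-GAG, and Alg, respectively. By subgroup, 2 of 10 other FGF ligands entered the test, as did 3 of 4 FGF homologous factors, 3 of 4 other receptors and coreceptors, both FGF-binding proteins, all 16 heparan sulfate carriers and enzymes, all 8 adaptors and signal transducers, 11 of 12 feedback inhibitors, and all 6 transcriptional targets. The ligands with the highest counts were Fgf22, a keratinocyte FGF, Fgf23, a phosphate hormone, and Fgf9, with means of 0.161, 0.739, and 0.0417 FPKM. The homologous factors, which stay in the cell and bind sodium channels, averaged 0.788 ± 0.179 FPKM for Fgf11 and 0.765 ± 0.336 FPKM for Fgf13, with overlapping spreads, and 0.0225 FPKM for Fgf12 (n = 12 libraries). Among the other receptors, Fgfr4 averaged 1.70 ± 1.08 FPKM and the decoy receptor Fgfrl1 1.06 ± 0.25 FPKM (n = 12), with the spread of Fgfr4 overlapping that of Fgfr3, and the coreceptor Klb averaged 0.0867 FPKM. Fgfr4 was highest in d-SMG day 3 (16.3 CPM against 5.99 in control). On day 14 it was called lower than control with d-SMG, s-GAG, and Alg. With s-GAG it was lower on 3 of 3 days (-1.45, SE 0.78, edgeR adjusted p = 0.575).

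Fgfbp1, a carrier that releases FGFs from heparan sulfate, was lowest in the d-SMG library of day 3. It was at 64.1, 25.3, and 17.4 CPM in control, 0.333, 39.3, and 99.3 CPM with d-SMG, 35, 60.7, and 89.4 CPM with s-GAG, and 31.1, 48.8, and 58.8 CPM with Alg. On day 14 it was above control by 2.51, 2.36, and 1.76 on the log2 scale with d-SMG, s-GAG, and Alg, and on day 3 it was below control with d-SMG by a log2 fold change of -7.59, from 4 reads against 1508. The other binding protein, Fgfbp3, averaged 1.20 ± 0.208 FPKM. Sdc1, the epithelial heparan sulfate carrier syndecan 1, was at 132, 201, and 148 CPM in control and 347, 526, and 781 CPM with s-GAG (log2 fold change 1.69, SE 0.60, edgeR adjusted p = 0.499, higher on 3 of 3 days). With Alg Sdc1 was also higher on 3 of 3 days (0.964, SE 0.585), and with d-SMG on 2 of 3 (0.431, SE 0.613). Sulf1, which trims sulfate from heparan sulfate, and the matrix carrier Hspg2 were below control with s-GAG on day 7 (-1.62 and -1.53) and day 14 (-2.81 and -1.54), and with Alg on day 7 (-2.55 and -1.64). With Alg on day 3 Sulf1 was called above control instead (1.32), and on day 14 it was at 0.99 and Hspg2 at -0.28. On day 3 both genes were also above control with s-GAG, as was Hspg2 with Alg, without a call (each higher on 1 of 3 days). Over the 3 days none of these differences passed the test, with Sulf1 at -1.37 for s-GAG and 0.22 for Alg (edgeR adjusted p = 0.58 and 1). The adaptors Plcg1 and Grb2 and the phosphatase Ptpn11 averaged 57.4 ± 16, 22.5 ± 5.88, and 26.4 ± 7.60 FPKM.

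Among feedback inhibitors, Cbl, Spred1, and Dusp6 had the highest mean CPM. Dusp6, an ERK phosphatase that FGF signaling induces, was above control on day 14 by 1.94 with d-SMG and 1.86 with s-GAG, and by 0.96 with Alg. On day 3 it was at -0.61, -0.18, and -0.47 with d-SMG, s-GAG, and Alg, and on day 7 at 0.22, 0.24, and -0.44. Over the 3 days it was at 0.40, 0.55, and -0.12 (edgeR adjusted p = 1, 0.666, and 1). The targets with the highest mean CPM were Ccnd1, Myc, and Egr1, with 34.2, 24, and 20.3 CPM, which are not scaled by length. Etv4, an ETS factor induced by FGF signaling that was picked after its values were seen, was at 2.55, 2.37, and 1.7 CPM in control and 5.73, 6.42, and 11.9 CPM with s-GAG (1.76, SE 0.67, edgeR adjusted p = 0.509, higher on 3 of 3 days). Its Alg values were 8.59, 3.85, and 4.6 CPM, also higher on 3 of 3 days (1.34, SE 0.67, edgeR adjusted p = 1), and its d-SMG values were 0.999, 2.63, and 8.45 CPM. In the pairs by day, 4 pathway genes were called higher and 8 lower of 50 with d-SMG on day 3, 1 and 2 of 50 on day 7, and 9 and 8 of 52 on day 14. With s-GAG the counts were 8 and 0 of 52, 10 and 7 of 52, and 8 and 17 of 51, and with Alg 5 and 1 of 53, 2 and 7 of 49, and 6 and 4 of 52. The background shares are those given for the same pairs above, and the median log2 fold change of the list ran from -0.51 (s-GAG day 14) to 0.28 (s-GAG day 3).

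**Figure D5:**
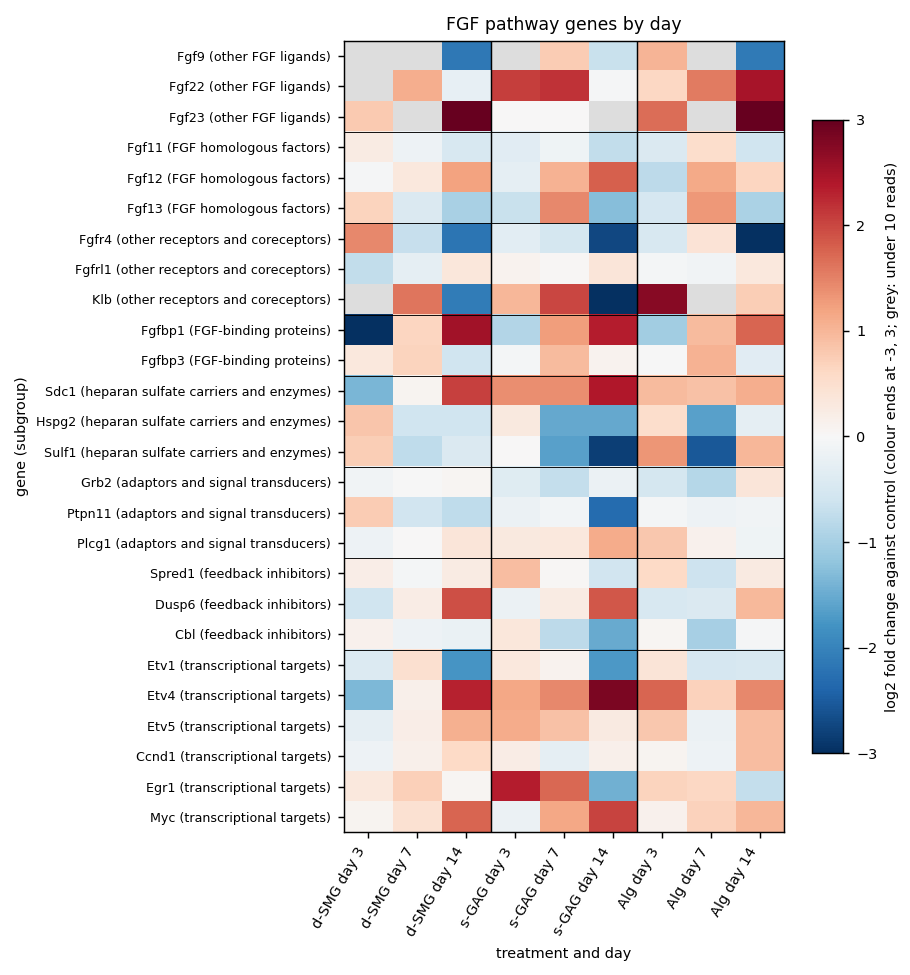
Colors give the log2 fold change of each treated library against the day-matched control library for the leading genes of each subgroup and all 6 targets, with gray where the pair held fewer than 10 reads. Fgfbp1 goes from -7.59 with d-SMG on day 3 to 2.51 on day 14, beyond the color range at its low end.

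The genes whose log2 CPM ran most like that of each member over the 12 libraries were listed by Pearson r, as a description of libraries that share groups, days, and tissue composition. They are the top of a ranking of the genes tested, so part of each r can come from picking. The highest r to expect among unrelated genes was not computed, and Fgf3, Fgf2, and Fgf10 rest on 57, 97, and 102 reads in total. For Fgfr2 they were Cpa4 (r = 0.986), Mpzl2 (0.981), and Esrp1 (0.981), of which Esrp1 is an epithelial splicing regulator. For Fgfr3 they were Sema3e (0.984), Fhdc1 (0.984), and Cdc42bpg (0.983), and for Fgfr1 Numbl (0.971), Adam22 (0.971), and Sec24d (0.968), a COPII coat component. Fgf7 ran most like Zfat (0.982), Dhx34 (0.907), and Gpr107 (0.903), and Fgf5 most like Gabra4 (0.912), Slc7a10 (0.905), and the homeobox gene Dlx2 (0.895). For the remaining members r was at most 0.916. The first genes were Neu2 and Nmrk2 for Fgf2 (0.916 and 0.914), Dusp14 for Fgf3 (0.911), Lins1 for Fgf1 (0.903), Me3 for Fgf18 (0.880), and Gtf3c4 for Fgf10 (0.868). Between members, r was negative for Fgf7 with Fgfr3 (-0.66), Fgf2 with Fgfr2 (-0.64), and Fgf7 with Fgf5 (-0.57). The d-SMG library of day 3 was the highest for Fgf2 (1.58 CPM) and the lowest for Fgfr2 (1.66 CPM), and r without it was not computed.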

How the data were processed

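Wound skin of diabetic rats was measured by stranded, rRNA-depleted RNA sequencing in 12 libraries, 1 for each group and day. The authors deposited read counts of 25620 genes as whole numbers without normalization, and, for 25524 genes, FPKM values that adjust for gene length and depth. Per the labels, the submitters' processing notes name bcl2fastq, FastQC, TopHat2, and edgeR. The counting tool and the genome build are not given in the sources used here, so that no gene coordinates of the files are printed. Each table held 1 further value column without a counterpart among the described samples, which was left out.

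Counts were scaled with TMM and tested by quasi-likelihood in edgeR (version 4.0.16, R version 4.3.3), with group and day as terms over the 12 libraries, genes kept by filterByExpr (16110), and Benjamini-Hochberg adjustment over all of them at an FDR of 0.05. The day is the replicate and the block, since the labels give 1 library for each group and day. Whether libraries of a day share more than the day is not stated, and p-values measure the spread between these libraries. Single pairs were compared by fold with Clopper-Pearson intervals at 95%, without a test. For the fold of a pair only, a library at 0 counts was set to a floor of 3 counts, or to the count of the other library where that was lower. Levels, shares, intervals, and the edgeR test kept the 0. The code was tested on simulated data.

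The named genes are the 10 members, the 3 genes with the highest mean CPM of each pathway subgroup, any pathway gene called, and the 3 genes most like each member by Pearson r of log2 CPM with a prior count of 2. The members and lists were chosen with earlier results of these data known. The alternatives were RLE factors or library size, other filters, DESeq2 1.42.0, limma 3.58.1 on log2 FPKM with a pseudocount of 1 or 0.1, fits without the day block, only the libraries compared, and leaving out libraries or days, with library size and the deposited FPKM also tried for the order of the libraries. Plots were made with matplotlib version 3.10.9 and Python version 3.11.15.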

Additional observations from a re-analysis of the deposited data

Results flagged for a closer look

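Fgfr3 with d-SMG lay on opposite sides of control on 2 days, with a log2 fold change of -1.79 on day 3 and 1.03 on day 7. Fgf1 with s-GAG did so as well, with 1.24 on day 7 and -1.18 on day 14. With 1 library for each group and day, the difference between the days was not tested in either case. The keratinocyte marker sum of the d-SMG library of day 3 was 73.5 CPM against 5640 in control, and on day 7 it was 8250 against 4230. For Fgf1, the control library of day 7 was at 2.98 CPM, the lowest of the 12 with TMM and the second lowest in FPKM.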

How the results depend on the processing

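The number of members called over the 3 days or between days was 0 in each alternative run, including the fit with no replicate block, where the day or group term was left out and the count of calls over all genes was also 0. The calls over all genes moved more. DESeq2 called 9, 288, and 88 genes for d-SMG, s-GAG, and Alg and 0, 39, and 7 between days, none of them a member. Only the libraries compared gave 12 genes for s-GAG and 9 for Alg, no low-count filter gave 1 for s-GAG, and s-GAG had 66 without the d-SMG library of day 3 and 1 without the Alg library of day 7. The lowest adjusted p of any member over all these fits was 0.0793, for Fgf5 with s-GAG, whose highest was 0.885. With library size in place of TMM, 3 fold changes near 0 changed sign, Fgf1 with s-GAG to -0.01, Fgf5 on day 7 against 3 to 0.04, and Fgf18 on day 14 against 7 to -0.08, since this scaling shifts a pair by -0.46 to 0.29 on the log2 scale.

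The member and day values at least 2-fold apart were 7, 13, and 8 for d-SMG, s-GAG, and Alg, beside shares of all genes that also differed between the pairs, as given above. With at least 50 reads in the pair d-SMG had 4, and on log2(FPKM + 1), which shrinks low genes, the counts were 2, 5, and 2. Chosen after seeing the data, leaving out 1 library at a time gave 4 to 5 for d-SMG, 8 to 10 for s-GAG, and 4 to 7 for Alg, from fewer pairs by construction. The lowest counts were without the d-SMG library of day 3 (4), the s-GAG library of day 7 or day 14 (8 each), and the Alg library of day 3 (4), and without that of day 7 it was 5. Also chosen after seeing the data, other scalings took Fgfr3 with d-SMG on day 7 to 0.97 and Fgf7 with Alg on day 7 to -0.99 (RLE), and Fgf7 with d-SMG on day 14 to -0.98 (library size), just under 2-fold. Of the values not called, library size took Fgfr1 and Fgf18 with d-SMG on day 3 to -1.16 and -1.18. It also took Fgfr3 with d-SMG on day 14 to 31.6 CPM against 15.6 in control, just over 2-fold. With library size, small values changed sign for Fgf1 with d-SMG on day 3 (-0.03), and Fgf7 and Fgfr2 with d-SMG on day 7 (0.13 and 0.26). They also did so for Fgfr2 with d-SMG on day 14 (0.18), Fgfr1 with s-GAG on day 3 (0.13), and Fgfr3 with s-GAG on day 14 (-0.10). The same values changed sign in the deposited FPKM. Depth limits Fgf2, Fgf3, Fgf5, and Fgf10, with fewer than 10 reads in 6 or more libraries each. On log2 FPKM only 6 members passed the filter.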
